A study of Mus musculus with 6 samples.

Results

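The 10 genes described here encode interleukin-15, its receptor and the shared machinery that carries its signal: Il15, Il15ra, Il2rb, Il2rg, Jak1, Jak3, Stat5a and Stat5b, together with Il7 and Il7r, a second cytokine and receptor of the same family. They were chosen by name from the 23557 genes of the table, for their place in the pathway. The study singled out Il15ra on these same samples, so its values here are not independent evidence of a direction. CT26 is a BALB/c colon carcinoma line, and total RNA of whole CT26 tumors was sequenced from 3 mice given NaCl and 3 mice given H89, an inhibitor of protein kinase A and other kinases. All were female BALB/c mice, 7 weeks old, that received 500000 CT26 cells under the skin of the flank, and all tumors were taken on day 14 after that injection. H89-treated mice received 10 mg/kg intraperitoneally 2 times a week in NaCl, and control mice received NaCl alone. Each value comes from a whole tumor, which holds carcinoma cells, leukocytes and stroma, so fewer cells of a type and less RNA per cell cannot be told apart. All 10 genes passed the filter on low values.

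Interleukin-15 is a cytokine needed by natural killer (NK) cells and memory CD8+ T cells. It is made mostly by macrophages, dendritic cells and stromal cells, which hold it on their surface bound to the receptor alpha chain (Il15ra) and present it to a neighbouring lymphocyte. The lymphocyte answers through the beta chain (Il2rb) and the common gamma chain (Il2rg), to which the kinases Jak1 and Jak3 are bound, and these phosphorylate STAT5. Interleukin-7 uses the same gamma chain with its own receptor chain, Il7r. Activity of this route lies largely in phosphorylation, which RNA levels do not measure.

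Promoter windows of 300 bases, from 250 bases before to 50 bases after an annotated start, were found in RefSeq (GRCm38.p6) for 7 of the 10 genes, as 10 windows. Those of Il15ra are shown because Il15ra had the largest difference between the groups among the 10 genes, and that of Jak1 because it alone of the 10 windows held a full cAMP response element (CRE), the sequence bound by CREB, a factor that protein kinase A phosphorylates. The Il15ra windows lie on the plus strand at chr2:11705043-11705342 and chr2:11705462-11705761, and the Jak1 window on the minus strand at chr4:101265174-101265473. Each is written 5′ to 3′ along the gene, with motif matches in capitals: an IRF core (AANNGAAA) in both Il15ra windows, the CRE half-site (TGACG) in the second of them, and the CRE (TGACGTCA) and a further half-site in Jak1.
Il15ra window 1: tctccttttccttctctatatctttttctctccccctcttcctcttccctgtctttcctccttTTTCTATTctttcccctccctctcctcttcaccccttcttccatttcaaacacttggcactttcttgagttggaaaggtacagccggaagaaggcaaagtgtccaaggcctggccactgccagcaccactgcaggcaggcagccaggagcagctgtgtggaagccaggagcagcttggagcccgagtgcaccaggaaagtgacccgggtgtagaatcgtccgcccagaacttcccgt
Il15ra window 2: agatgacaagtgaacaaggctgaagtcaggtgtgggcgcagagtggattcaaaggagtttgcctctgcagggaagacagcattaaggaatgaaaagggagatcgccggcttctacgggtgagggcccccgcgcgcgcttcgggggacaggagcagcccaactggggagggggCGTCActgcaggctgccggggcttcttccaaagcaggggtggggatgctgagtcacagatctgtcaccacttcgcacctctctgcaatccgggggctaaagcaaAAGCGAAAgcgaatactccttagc
Jak1: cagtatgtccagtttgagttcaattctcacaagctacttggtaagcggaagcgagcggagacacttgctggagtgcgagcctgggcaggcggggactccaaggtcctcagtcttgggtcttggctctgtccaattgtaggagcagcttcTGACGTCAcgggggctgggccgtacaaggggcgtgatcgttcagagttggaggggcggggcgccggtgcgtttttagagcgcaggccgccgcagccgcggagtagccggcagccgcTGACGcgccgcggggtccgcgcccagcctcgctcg
On both strands of all 32851 RefSeq promoter windows, the IRF core was found in 23.9%, the CRE in 1.79% and the CRE half-site, which every full CRE also holds, in 20.8%. Among the 10 windows, the IRF core was also found in that of Il2rg and the first of Stat5b, and CRE half-sites also in the second of Stat5a. The STAT motif GAS (TTCNNNGAA, in 8.30% of all windows) matched only the Il7r window among the 10, and the interferon-stimulated element named ISRE matched none of them. The search letters of the IRF core were added after the Il15ra sequences had been seen, and a match of letters is not a bound site.

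Expression is given as counts per 1000000 (CPM), scaled between tumors by edgeR's TMM method. edgeR's quasi-likelihood test was fitted over all 13118 genes with a mean of at least 0.5 CPM, and log2 fold changes are of H89 against NaCl. Total estimated counts lay between 27067349 and 31958793 per tumor, and 1 count was worth at most 0.0369 CPM. Of the 10 genes, 0 passed the Benjamini-Hochberg threshold of 0.05 in this test, which 1.59% of all genes tested passed. At an unadjusted p under 0.05, which 25.0% of all genes reached, 3 of the 10 genes were higher (Il15ra, Jak3 and Il15) and 0 were lower, beside 13.1% higher and 11.9% lower among all genes. In 2 of the 10 genes, Il15ra and Jak3, every H89 value lay above every NaCl value, and in 0 every H89 value lay below, beside 15.2% and 15.5% of all genes. The fitted log2 fold change was above 0 for all 10 genes, with a median of 0.31, where 50.6% of all genes were above 0 with a median of 0.004. With DESeq2, the tool named in the study's methods, 1 of the 10 genes, Il15ra, had an adjusted p under 0.05, beside 10.4% of the genes for which it gave one. DESeq2's default Benjamini-Hochberg adjustment was used here. The study's methods name Bonferroni instead, and its selection of genes also set a minimum fold change.

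**Figure D1:**
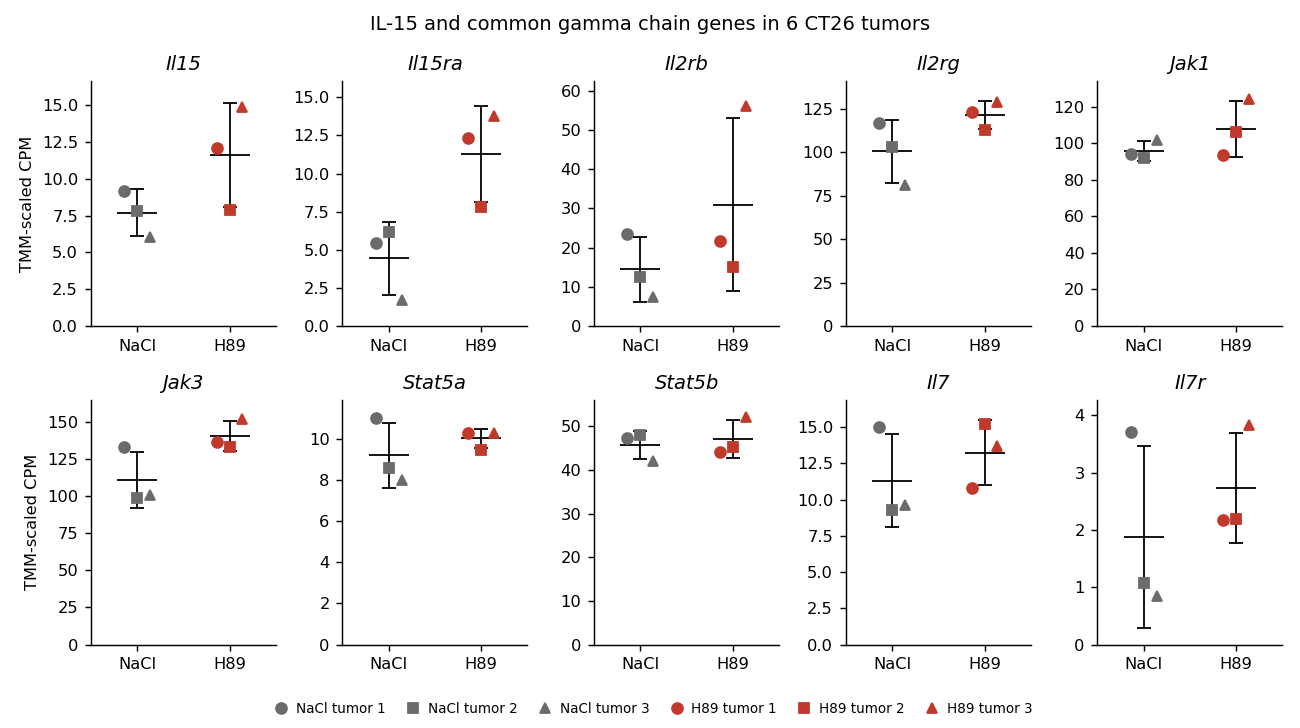
TMM-scaled CPM (vertical axis, from 0) of the 10 genes in each of 3 NaCl tumors (grey) and 3 H89-treated tumors (red), with marker shape for the tumor number and black lines for the mean ± SD. The 3 H89 values lay above all NaCl values for Il15ra and, by a margin of 0.41 CPM, for Jak3, and the groups overlapped for the other 8 genes.

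The receptor alpha chain had the largest difference. Il15ra (ENSMUSG00000023206, chromosome 2 from 11705290 to 11734317, plus strand, GRCm38) was at 5.47, 6.15 and 1.72 CPM in NaCl tumors 1 to 3 and at 12.3, 7.78 and 13.8 CPM in H89-treated tumors 1 to 3. The groups did not overlap, and the lowest H89 tumor was 1.63 CPM above the highest NaCl tumor. Means were 4.45 ± 2.39 CPM with NaCl and 11.3 ± 3.13 CPM with H89 (SD, n = 3 each). The log2 fold change was 1.34 (SE 0.43), or 2.54-fold. Its edgeR unadjusted p was 0.0142 and its Benjamini-Hochberg adjusted p 0.116, while DESeq2 gave an adjusted p of 0.0107. Of all genes tested, 1.15% had a log2 fold change at least as high. NaCl tumor 3, with 47 counts, lay far below the other two NaCl tumors, and without it the log2 fold change was 0.96. The unadjusted edgeR p of Il15ra was between 0.00847 and 0.0434 with 1 tumor left out, and its adjusted p was never under 0.158. The share of all genes that stay under 0.05 in every such fit was not counted.

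The ligand Il15 (ENSMUSG00000031712, chromosome 8 from 82331632 to 82403222, minus strand) was at 9.21, 7.83 and 6.03 CPM in NaCl tumors and at 12.1, 7.91 and 14.9 CPM in H89-treated tumors. H89-treated tumor 2 lay among the NaCl tumors, and the other two H89-treated tumors lay above all of them. The log2 fold change was 0.60 (SE 0.25, edgeR unadjusted p = 0.0477, Benjamini-Hochberg adjusted p = 0.195). It was 0.37 when H89-treated tumor 3 was left out, with an unadjusted edgeR p of 0.178, and the unadjusted p was above 0.05 in 4 of the 6 fits with 1 tumor omitted.

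Because the alpha chain presents the cytokine, their ratio was taken within each tumor, where the scaling between tumors cancels. Il15ra reached 0.594, 0.786 and 0.285 of the Il15 CPM in NaCl tumors and 1.02, 0.985 and 0.927 of it in H89-treated tumors. The 3 H89-treated tumors were nearly alike in this ratio, also tumor 2, whose Il15 and Il15ra levels were the lowest of its group. The mean log2 ratio was -0.97 ± 0.76 with NaCl and -0.04 ± 0.07 with H89 (SD, n = 3 each). The difference of 0.93 had an exact two-sided permutation p of 0.1, the smallest that 3 tumors against 3 can give, and 0.5 after Benjamini-Hochberg adjustment over the 5 ratios tested. The size of the difference rested in part on NaCl tumor 3, and was 0.51 when that tumor was left out.

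Il2rb and Il2rg are the chains through which a lymphocyte binds the presented cytokine. Il2rb (ENSMUSG00000068227, chromosome 15 from 78479256 to 78495271, minus strand) was at 23.5, 12.5 and 7.35 CPM in NaCl and at 21.7, 15.1 and 56.1 CPM in H89-treated tumors. H89-treated tumor 3 stood apart, while tumors 1 and 2 lay within the NaCl range. The log2 fold change was 1.10 (SE 0.55, edgeR adjusted p = 0.252). It was 0.35 without H89-treated tumor 3 and 1.65 without NaCl tumor 1. Il2rg (ENSMUSG00000031304, chromosome X from 101264378 to 101268255, minus strand) was at 117, 103 and 81.4 CPM in NaCl and at 123, 113 and 129 CPM in H89-treated tumors. The difference was small and the groups overlapped in H89-treated tumor 2 and NaCl tumor 1, with a log2 fold change of 0.28 (SE 0.13, edgeR adjusted p = 0.237). Exons of Il2rg share 728 bases with the protein-coding gene Gm20489 on the same strand in GENCODE M21, so its reads may be divided between both. The ratio of Il2rb to Il2rg lay between 0.0903 and 0.201 in NaCl and between 0.134 and 0.435 in H89-treated tumors, which overlapped (difference of log2 means 0.74, exact permutation p = 0.4). The difference was 0.24 when H89-treated tumor 3 was left out.

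Jak3 and Jak1 are the kinases bound to these chains. Jak3, which binds the common gamma chain (ENSMUSG00000031805, chromosome 8 from 71676296 to 71690575, plus strand), was at 133, 98.9 and 101 CPM in NaCl and at 137, 133 and 152 CPM in H89-treated tumors. NaCl tumor 1 all but touched the H89 group, at 132.5 CPM against 132.9 CPM in the lowest H89-treated tumor, and this order turned under the median ratio normalization, without the filter and with DESeq2's size factors. The log2 fold change was 0.35 (SE 0.13, edgeR unadjusted p = 0.0275, adjusted p = 0.154). Exons of Jak3 share 404 bases with Insl3 on the same strand. Jak1, which binds the beta chain and Il7r (ENSMUSG00000028530, chromosome 4 from 101152367 to 101265282, minus strand), was at 93.9, 91.8 and 102 CPM in NaCl and at 93.7, 106 and 124 CPM in H89-treated tumors. Here H89-treated tumor 1 lay within the NaCl values, and the log2 fold change was 0.17 (SE 0.11, edgeR adjusted p = 0.393). The ratio of Jak3 to Jak1 was 1.41, 1.08 and 0.983 in NaCl and 1.46, 1.26 and 1.23 in H89-treated tumors, an overlap, with a difference of 0.20 on the log2 scale (exact permutation p = 0.3).

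STAT5, the transcription factor that these kinases phosphorylate, is encoded by a pair of neighbouring genes on chromosome 11. Stat5b (ENSMUSG00000020919, from 100780731 to 100850724, minus strand) was at 47.3, 47.9 and 42.0 CPM in NaCl and at 44.0, 45.3 and 52.1 CPM in H89-treated tumors. Stat5a (ENSMUSG00000004043, from 100859351 to 100885169, plus strand) was at 11.0, 8.58 and 8.0 CPM in NaCl and at 10.3, 9.46 and 10.3 CPM in H89-treated tumors. Both overlapped between the groups, with log2 fold changes of 0.04 (SE 0.10, edgeR adjusted p = 0.812) for Stat5b and 0.13 (SE 0.16, edgeR adjusted p = 0.646) for Stat5a. Stat5b supplied 81.0% to 84.8% of the CPM of the pair in each tumor, and the sum of both was 54.9 ± 4.36 CPM with NaCl and 57.2 ± 4.51 CPM with H89 (SD, n = 3 each), a log2 ratio of 0.06. The ratio of Stat5a to Stat5b ranged from 0.179 to 0.234 over the 6 tumors. Stat5a and Stat5b share much of their sequence and Stat5a overlaps Stat3 by 72 exon bases on the opposite strand, so a part of their reads may be assigned to the wrong gene.

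Interleukin-7, a survival factor for resting T cells that stroma makes, and its receptor chain overlapped between the groups. Il7 (ENSMUSG00000040329, chromosome 3 from 7569994 to 7613760, minus strand) was at 15.0, 9.28 and 9.61 CPM in NaCl and at 10.8, 15.2 and 13.7 CPM in H89-treated tumors. Il7r (ENSMUSG00000003882, chromosome 15 from 9505788 to 9530176, minus strand) was at 3.70, 1.08 and 0.841 CPM in NaCl, from 103, 29 and 23 counts, and at 2.17, 2.19 and 3.83 CPM in H89-treated tumors, from 61, 72 and 126 counts. In both genes NaCl tumor 1 lay with the H89-treated tumors. The log2 fold changes were 0.23 (SE 0.22, edgeR adjusted p = 0.552) for Il7 and 0.54 (SE 0.55, edgeR adjusted p = 0.571) for Il7r. Without NaCl tumor 1 the value of Il7r was 1.51. Exons of Il7 share 105 bases with the antisense gene Gm16685. The ratio of Il7r to Il7 lay between 0.0875 and 0.247 in NaCl and between 0.144 and 0.280 in H89-treated tumors (difference of log2 means 0.56, exact permutation p = 0.3).

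**Figure D2:**
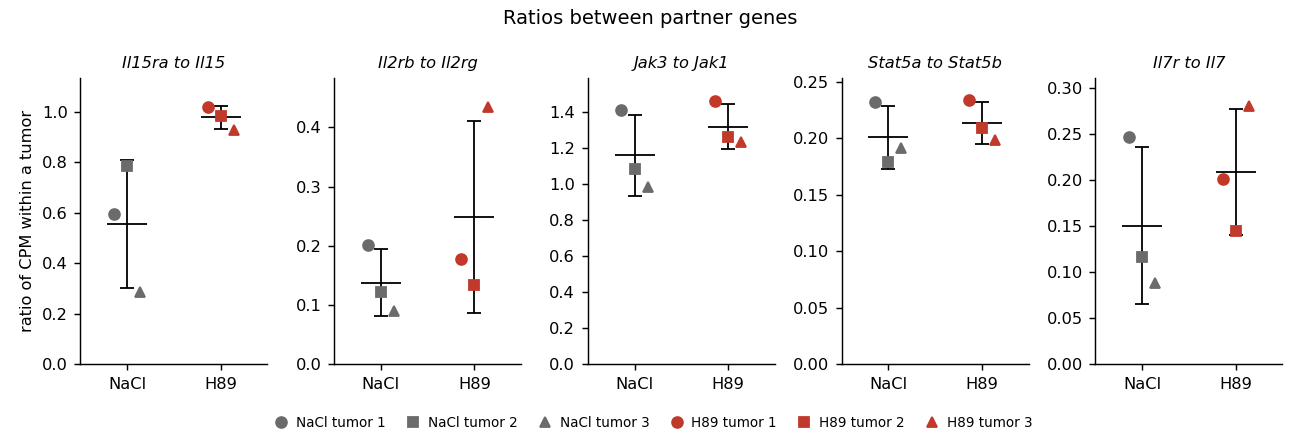
Ratio of CPM within each tumor (vertical axis, from 0) for 5 pairs of partner genes in NaCl (grey) and H89-treated tumors (red), with marker shape for the tumor number and black lines for the mean ± SD of the ratios. Il15ra to Il15 was the only pair without overlap, at 0.285 to 0.786 in NaCl and 0.927 to 1.02 in H89-treated tumors.

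The same tumors stood at the ends in most of the 10 genes. H89-treated tumor 3 was the highest of all 6 in 8 genes, NaCl tumor 3 the lowest of all 6 in 7, and NaCl tumor 1 the highest of its group in 7. The count of genes higher at an unadjusted p under 0.05 in edgeR's test was 7 of 10 without NaCl tumor 1, where 12.0% of all genes were, and 1 of 10 without NaCl tumor 2 (10.1% of all genes), NaCl tumor 3 (9.58%) or H89-treated tumor 3 (10.6%). Without NaCl tumor 1, 8 of the 10 genes did not overlap, beside 21.3% of all genes, and 4 did not overlap without H89-treated tumor 2, beside 19.7% of all genes. No direction other than that of Stat5b changed when a tumor was left out. Stat5b had a log2 fold change of -0.02 without NaCl tumor 3 and of -0.04 without H89-treated tumor 3.

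**Figure D3:**
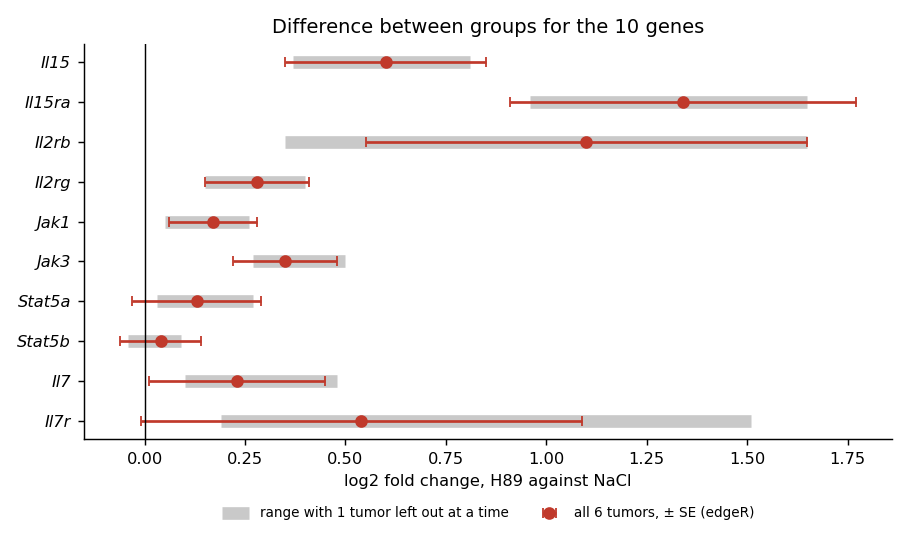
Log2 fold change of H89 against NaCl (horizontal axis) for the 10 genes, as red points with bars of 1 SE from edgeR's fit on 6 tumors and as grey bars spanning the values found when each tumor was omitted in turn. The grey bar of Il15ra ran from 0.96 to 1.65, that of Il2rb from 0.35 to 1.65, and that of Stat5b crossed 0.

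Divided by the median length of each gene's protein-coding transcripts, the levels in NaCl tumors put the common gamma chain first, Il2rg at 88.5 ± 15.7 CPM per kilobase (SD, n = 3), before Jak1 at 36.1 ± 2.10 and Jak3 at 27.6 ± 4.72 CPM per kilobase. Stat5b followed at 8.90 ± 0.634 and Il15 at 6.37 ± 1.32 CPM per kilobase. Il7 (5.18 ± 1.47), Il2rb (4.74 ± 2.71), Il15ra (2.88 ± 1.55) and Stat5a (2.55 ± 0.437 CPM per kilobase) came next. From Il15 down to Stat5a, neighbours in this order differed by less than the larger of their SDs. Il7r was the lowest at 0.532 ± 0.450 CPM per kilobase. Over the union of a gene's exons Jak3 (24.8 CPM per kilobase) stood above Jak1 (19.3 CPM per kilobase), so the order of the kinases depended on the length used. The order of Il2rb, Il15ra, Stat5a and Il7 changed as well, at 3.37, 1.89, 2.24 and 2.04 CPM per kilobase of exon union, while Il2rg stayed first and Il7r last.

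The rest of the pathway was read from 8 lists written for this purpose, which hold 55 genes counted once, 50 of them tested. By edgeR's test 0 of the 50 passed the Benjamini-Hochberg threshold. At an unadjusted p under 0.05, 9 were higher and 6 lower, beside 13.1% and 11.9% of all genes. The groups did not overlap in 8 higher and 9 lower genes, beside 15.2% and 15.5% of all genes. The same shares of all genes stand beside the counts given below for each list. Their median log2 fold change was 0.00, beside 0.31 for the 10 genes and 0.004 for all genes.

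Among the other cytokines of the family, Il4 was the only 1 of 5 tested, at 0.671 to 0.863 CPM in NaCl and 0.730 to 0.943 CPM in H89-treated tumors. Il9 had 0 counts in all 6 tumors, where up to 3 counts per tumor cannot be told from 0, while Il2, Il21 and Tslp were below the filter with at most 13 counts in any tumor. Of the other receptor chains, 0 of 5 tested were higher and 1 was lower at the unadjusted p, and Il9r was below the filter. Il4ra, the interleukin-4 receptor alpha chain, was at 104, 109 and 111 CPM in NaCl and at 91.8, 103 and 86.5 CPM in H89-treated tumors, which did not overlap (log2 fold change -0.20, SE 0.09, edgeR adjusted p = 0.200). Il21r, the interleukin-21 receptor, had a log2 fold change of 0.41 (edgeR adjusted p = 0.253), and Crlf2, which pairs with Il7r to bind thymic stromal lymphopoietin, of -0.18 (edgeR adjusted p = 0.460). Il2ra, the chain that gives the interleukin-2 receptor its high affinity and itself a STAT5 target, was singled out after its values were seen. It was at 6.91, 2.01 and 1.90 CPM in NaCl and at 2.89, 3.47 and 4.53 CPM in H89-treated tumors, and NaCl tumor 1 was again the highest.

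Of 5 other Janus kinases and STATs, 1 was higher at the unadjusted p and 0 lower. Stat4, which carries interleukin-12 signals in T and NK cells, was at 3.35, 1.57 and 1.43 CPM in NaCl and at 4.35, 3.41 and 5.14 CPM in H89-treated tumors, without overlap (log2 fold change 1.02, SE 0.35, edgeR adjusted p = 0.133). Tyk2 did not overlap either, at 36.0 to 41.8 CPM against 41.9 to 43.7 CPM, with a log2 fold change of 0.17 (edgeR adjusted p = 0.287). Stat3 overlapped, with a log2 fold change of 0.20 (edgeR adjusted p = 0.458). Of 7 negative feedback genes, 1 was higher and 0 lower: Ptpn6, the leukocyte phosphatase SHP-1, had a log2 fold change of 0.47 (SE 0.15, edgeR adjusted p = 0.122) but overlapped between groups. The cytokine-induced inhibitors Socs1 and Socs2 stood on opposite sides of 0, at 0.50 (edgeR adjusted p = 0.315) and -0.48 (edgeR adjusted p = 0.246).

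Genes known as STAT5 targets lay on both sides of 0. Of 13 genes, 2 lay higher and 2 lower past the unadjusted threshold, and the median log2 fold change was -0.05. Bcl2, which protects lymphocytes from cell death, was at 29.9, 24.7 and 29.5 CPM in NaCl and at 32.5, 36.8 and 41.9 CPM in H89-treated tumors (log2 fold change 0.40, SE 0.12, edgeR adjusted p = 0.110). Its relative Bcl2l1 was at 225, 212 and 193 CPM in NaCl and at 165, 142 and 155 CPM in H89-treated tumors (log2 fold change -0.45, SE 0.10, edgeR adjusted p = 0.0612). Neither gene overlapped between the groups, and they lay in opposite directions. Pim2, a kinase that promotes survival, had a log2 fold change of 0.66 (SE 0.25, edgeR adjusted p = 0.161), and Osm, the cytokine oncostatin M and the other of the lower pair, named after its values were seen, of -0.67 (SE 0.27, edgeR adjusted p = 0.178).

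In the arm that leads from the receptor to PI3 kinase, Akt and Ras, 2 of 12 genes were higher and 1 was lower past the unadjusted threshold. Pik3cd, the catalytic subunit found mainly in leukocytes, was at 25.6, 31.0 and 27.7 CPM in NaCl and at 37.3, 33.1 and 43.5 CPM in H89-treated tumors (log2 fold change 0.43, SE 0.13, edgeR adjusted p = 0.0995). The regulatory subunit Pik3r1 was at 39.9 to 43.8 CPM against 48.6 to 50.8 CPM (log2 fold change 0.26, edgeR adjusted p = 0.107), again without overlap. Akt2 was the lower gene, at 202 to 225 CPM against 164 to 174 CPM (log2 fold change -0.31, SE 0.08, edgeR adjusted p = 0.0847). Protein phosphatase 2A removes phosphate from Akt, and 4 of its subunit genes were listed. All 4 had log2 fold changes below 0, of -0.08 to -0.18, with 1 of 4 at an unadjusted p under 0.05 and 3 of 4 without overlap. Ppp2cb had a log2 fold change of -0.17 (edgeR adjusted p = 0.200), Ppp2r1a of -0.18 (edgeR adjusted p = 0.273) and Ppp2ca of -0.12 (edgeR adjusted p = 0.341).

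Of 6 genes known to regulate Il15 transcription or release, 3 were higher and 1 was lower past the unadjusted threshold. Stat2, part of the factor activated by type I interferon, was at 77.9, 71.7 and 40.1 CPM in NaCl and at 190, 93.5 and 162 CPM in H89-treated tumors (log2 fold change 1.23, SE 0.31, edgeR adjusted p = 0.0800). Irf1, an interferon-induced factor known to act at the Il15 and Il15ra genes, was at 117, 107 and 56.9 CPM in NaCl and at 185, 131 and 214 CPM in H89-treated tumors (log2 fold change 0.92, SE 0.28, edgeR adjusted p = 0.106). In both, as in Il15ra, NaCl tumor 3 was the lowest of all and H89-treated tumor 2 the lowest of its group. Rela, a subunit of NF-kappaB, lay on the other side of 0 without overlap, at 143 to 176 CPM against 119 to 128 CPM (log2 fold change -0.33, SE 0.10, edgeR adjusted p = 0.102).

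**Figure D4:**
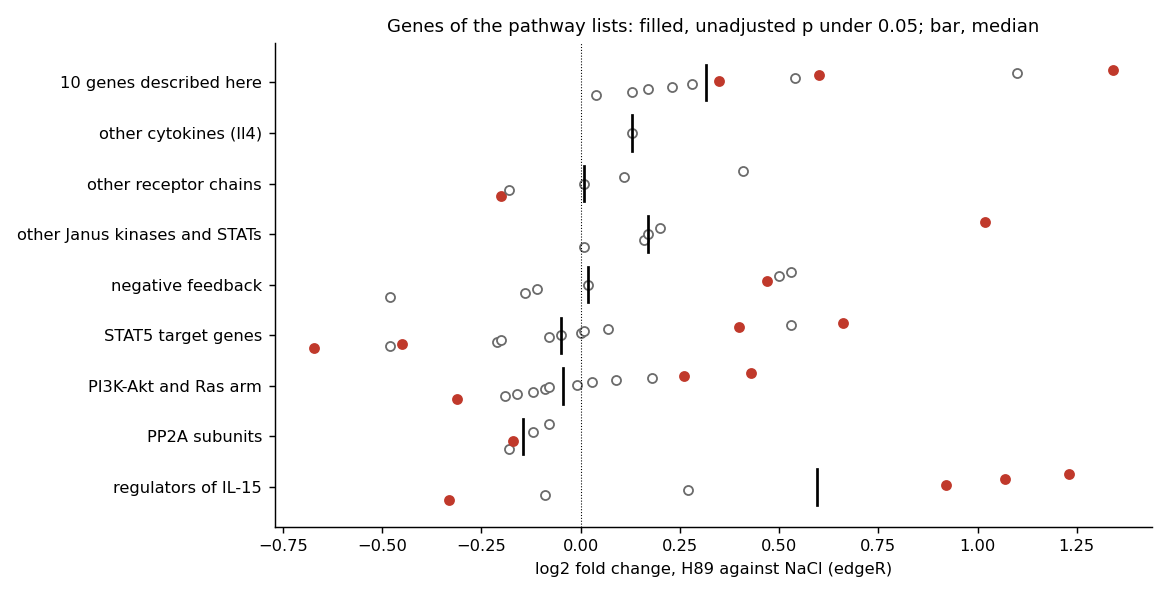
Log2 fold change of H89 against NaCl from edgeR (horizontal axis) for each tested gene of the 10 described and of the 8 pathway lists (3 genes belong to 2 or more lists). Filled red points have an unadjusted p under 0.05, open points do not, and the black bar is the median, which was 0.31 for the 10 genes and 0.59 for the regulators of IL-15.

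Markers of the cells that carry these receptors were read in the same tumors. The summed CPM of 8 T cell genes was 25.8, 13.6 and 11.9 in NaCl and 44.2, 24.1 and 62.2 in H89-treated tumors. Of the 8 genes, 6 were higher at the unadjusted p in edgeR's test, with a median log2 fold change of 1.32. In 0 of the 8 were the groups without overlap. For 6 NK cell genes the summed CPM was 15.0, 12.5 and 5.74 in NaCl and 31.4, 16.8 and 39.1 in H89-treated tumors. Of the 5 tested, 4 were higher and 2 did not overlap, and Klra8 had 0 counts in all tumors. Among all genes, 13.1% were higher at the unadjusted p and 15.2% were higher without overlap. H89-treated tumor 3, the highest for Il2rb, was the highest in both lists. Relative to the summed T and NK cell markers, a ratio added after the data had been seen, Il2rb was at 0.575, 0.478 and 0.416 in NaCl and at 0.287, 0.371 and 0.554 in H89-treated tumors. These overlapped, with a difference of log2 means of -0.32 (exact permutation p = 0.4).

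Ptprc, the leukocyte antigen CD45, was at 25.2, 31.5 and 29.9 CPM in NaCl and at 48.2, 47.2 and 78.8 CPM in H89-treated tumors (log2 fold change 1.01, SE 0.21, edgeR adjusted p = 0.0547). Of the 6 pan-leukocyte genes, Ptprc included, 2 were higher past the unadjusted threshold, and their median log2 fold change was 0.21. Relative to Ptprc, in ratios also added after the data had been seen, Il15ra was at 0.0575 to 0.217 in NaCl and at 0.165 to 0.255 in H89-treated tumors (difference of log2 means 0.53, exact permutation p = 0.7). Il2rg was at 2.73 to 4.63 times Ptprc in NaCl and 1.64 to 2.56 times in H89-treated tumors, and Jak3 at 3.14 to 5.26 and 1.93 to 2.84 times. These last ratios were lower in H89-treated tumors without overlap, by -0.68 and -0.62 on the log2 scale (exact permutation p = 0.1 for each, the smallest possible). For Il15 to Ptprc the difference was -0.40 (exact permutation p = 0.3). Ptprc had the largest log2 fold change of the 6 pan-leukocyte genes, followed by Cd52 at 0.97, and these directions depended on the marker used. Coro1a and Cd53 were at 0.33 and 0.05. Most of the summed CPM of the 6 came from Laptm5 and Lcp1, which were at -0.03 and 0.10. Relative to the summed CPM of all 6 genes, Il2rg and Jak3 overlapped between the groups, at 0.13 and 0.19 on the log2 scale (exact permutation p = 0.5 and 0.4), and Il15 was at 0.40 (exact permutation p = 0.2). Il15ra relative to that sum was higher in H89-treated tumors without overlap, by 1.34 (exact permutation p = 0.1, the smallest possible), and by 0.80 when NaCl tumor 3 was left out. Without this division the log2 fold change of Il15ra was 1.34 as well.

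Of 7 conventional dendritic cell genes, which mark cells that present interleukin-15, 4 of 5 tested were higher at the unadjusted p, and their summed CPM was 10.4 to 13.6 in NaCl and 17.2 to 19.1 in H89-treated tumors. Most of that sum came from Zbtb46, at 7.53 to 8.09 CPM in NaCl and 9.20 to 11.3 CPM in H89-treated tumors. Flt3, also of this list, was below the filter, at 1 to 5 counts in NaCl and 11 to 34 counts in H89-treated tumors. Macrophage genes, with summed CPM of 1193 to 1984 in NaCl and 1602 to 1881 in H89-treated tumors, had 0 of 8 past the unadjusted threshold and a median log2 fold change of 0.06. Summed fibroblast genes lay at 2475 to 2707 CPM and 2779 to 3564 CPM, with 3 of 6 higher. Of the B cell genes 1 of 2 tested was higher, with Ms4a1 below the filter. Of the neutrophil genes 1 of 4 tested was higher, Csf3r, with a log2 fold change of 0.90. Cxcr2 was at 0.29, while S100a8 and S100a9 were at -0.85 and -0.70, for a median of -0.2. Endothelial and proliferation genes had 0 past the unadjusted threshold. Of the skeletal muscle genes 1 of 3 tested was higher, Acta1, at 12.3 CPM in H89-treated tumor 1 and at most 0.576 CPM elsewhere, and of the keratinocyte genes 1 of 2 tested was lower, with Krt1 at 0 counts in all tumors. That gene, Cdsn, lay between 43.1 and 69.7 CPM with NaCl and between 10.3 and 14.3 CPM with H89 (log2 fold change -2.15, edgeR adjusted p = 0.0288), and was the only gene of any list past the adjusted threshold in edgeR's test. Krt10, the other keratinocyte gene tested, was at 0.31. Krt5, Krt14 and Lor were below the filter, with at most 5 counts in any tumor, so Cdsn is not read here as a measure of keratinocytes. The epithelial markers of the carcinoma were low, with Epcam at 0 to 1 count in NaCl and at 33, 3 and 3 counts in H89-treated tumors 1 to 3. Of the 4 epithelial genes tested 1 was lower past the unadjusted threshold, Krt18 (log2 fold change -1.04, edgeR adjusted p = 0.0653), while Krt8, Krt19 and Cdh1 were at 1.03, 2.56 and 0.05, for a median of 0.54. The value of Krt19 (SE 1.15) rested on H89-treated tumor 1, with 71 counts there and 12 and 8 in H89-treated tumors 2 and 3. The part that cell numbers take in the differences of the 10 genes was not tested.

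**Figure D5:**
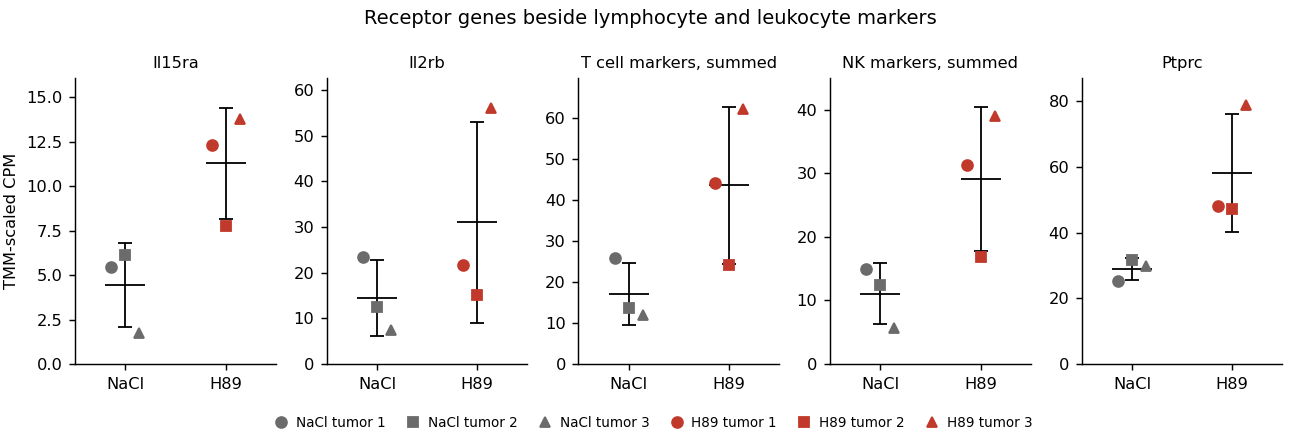
TMM-scaled CPM (vertical axis, from 0) of Il15ra and Il2rb beside the summed CPM of 8 T cell markers and 6 NK markers and the CPM of Ptprc in the same tumors, coloured by group, with marker shape for the tumor number and black lines for the mean ± SD. H89-treated tumor 3 was the highest in all 5 panels, and Ptprc was at 25.2 to 31.5 CPM in NaCl and 47.2 to 78.8 CPM in H89-treated tumors.

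To see which genes followed the same pattern, Pearson's r of log2(CPM + 0.5) over the 6 tumors was computed between each of Il15ra, Il15 and Il2rg and every tested gene, as a description of 6 points that share library and group. Nearest to Il15ra were Dnase1l3 (r = 0.999), Cfp (0.997), H2-Ab1 (0.996), Casp1 (0.994) and Cd74 (0.994). H2-Ab1 and Cd74 encode a class II antigen presentation chain and the invariant chain, and their log2 fold changes were 1.70 (edgeR adjusted p = 0.118) and 1.76 (edgeR adjusted p = 0.0964). Dnase1l3, a secreted nuclease made by dendritic cells and macrophages, was at 1.27 (edgeR adjusted p = 0.108). Cfp and Casp1 had smaller log2 fold changes, of 0.21 (edgeR adjusted p = 0.212) and 0.60 (edgeR adjusted p = 0.134). Nearest to Il15 were Serpina3f (r = 0.993), Nrgn (0.992), Sh2d2a (0.989), AW011738 (0.988) and Ccr10 (0.988), and nearest to Il2rg Esyt1 (0.996), Tnfrsf18 (0.992), Fam189a1 (0.991), Ltb (0.990) and H2-T-ps (0.990). Among the 10 genes themselves, Il15ra ran closest to Il2rg (r = 0.95) and Il15 (0.89) and farthest from Jak1 (0.29).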

How the data were processed

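Bulk RNA sequencing of 3 NaCl and 3 H89-treated CT26 tumors was analysed, with groups and replicate numbers from the sample labels. The authors deposited 1 table of 23557 genes that is called TPM but holds estimated counts per gene, scaled neither for depth nor for length, as read from the values: each tumor summed to 27067349 to 31958793. The submitters' processing notes name kallisto, DESeq2 and GRCm38, without versions.

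Estimated counts were rounded and fitted with edgeR 4.0.16 in R 4.3.3 (TMM, quasi-likelihood test, treatment as the only term, genes with a mean of at least 0.5 CPM, Benjamini-Hochberg adjustment over 13118 genes), after testing on simulated data. SEs were obtained from the size of the log2 fold change over the square root of F. Single values and ratios were compared by exact two-sided permutation tests. At these totals counting error is small beside the spread between tumors, except for genes of a few counts. That tumors came from separate mice is stated by the study.

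The 10 genes and all lists were chosen with earlier results of these data known. All 10 genes, the 3 genes with the smallest p of each pathway list, and the 5 genes most like Il15ra, Il15 and Il2rg are named. Positions are from GENCODE M21 (23007 of the 23557 symbols matched). Alternatives were DESeq2 1.42.0, limma 3.58.1 with pseudocounts of 0.5 and 1, median ratio and quantile normalization, edgeR's robust option, no filter, a filter of 5 CPM, a replicate block, and the omission of each tumor in turn.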

Additional observations from a re-analysis of the deposited data

How the results depend on the processing

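Over 15 alternatives, 6 of which left out 1 tumor, the log2 fold changes of the 10 genes gave 149 values, and 146 kept their direction and their side of the adjusted threshold. Il7r was not tested at a mean of at least 5 CPM. Stat5b ranged from -0.04 (H89-treated tumor 3 left out) to 0.09 (H89-treated tumor 1 left out), with -0.02 when NaCl tumor 3 was left out, and Il15ra passed the threshold with DESeq2 (1.33). The count of the 10 genes with an adjusted p under 0.05 went from 0 to 1 with DESeq2. The count higher at an unadjusted p went from 3 to between 1 and 7 with 1 tumor left out. The count higher without overlap went from 2 to 1 under the median ratio normalization, without the filter and with DESeq2, and to between 2 and 8 with 1 tumor left out, 8 when it was NaCl tumor 1 and 4 when it was H89-treated tumor 2. For the pathway lists, the count with an adjusted p under 0.05 went from 0 to 1 without the filter, where 311 of all 18837 genes passed. It went to 5 with DESeq2, beside 10.4% of all genes for which DESeq2 gave an adjusted p. The count lower without overlap went from 9 to 5 at a mean of at least 5 CPM. With 1 tumor left out, the pathway genes higher at an unadjusted p numbered 5 to 12. The 5 were found without NaCl tumor 2, beside 10.1% of all genes, and the 12 without NaCl tumor 1, beside 12.0%. Those lower numbered 3 to 7. Those without overlap numbered 8 to 15 higher, the 15 without NaCl tumor 1, beside 21.3% of all genes, and 11 to 13 lower. Shares of all genes lower with 1 tumor left out were not counted. Among all genes, the count with an adjusted p under 0.05 went from 208 to 80 under quantile normalization, to 1392 with DESeq2 and to between 0 and 12 with 1 tumor left out. With 1 tumor left out, the difference in log2 ratio ran from 0.51 to 1.25 for Il15ra to Il15, from 0.24 to 1.09 for Il2rb to Il2rg, from 0.09 to 0.35 for Jak3 to Jak1, from 0.02 to 0.21 for Stat5a to Stat5b and from 0.25 to 0.99 for Il7r to Il7. The log2 ratio of Il15ra to Ptprc was -0.08 without NaCl tumor 3 and 0.88 without NaCl tumor 1. The cause of these changes was not tested, beyond the smaller number of genes at the stricter filter and the fewer tumors.

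The labels number the tumors within each group and state no pairing. Deviations of same-numbered tumors from their group means correlated at 0.164, 0.063 and -0.025, not above 0.1 in every pair, and not every tumor was closest to its own number. They share only a number, and with the replicate block 0 genes passed the adjusted threshold where 208 did without it.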
